A study of Mus musculus with 12 samples.

Results

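The costimulatory and accessory receptors of T cells taken here were 10 genes chosen by name, out of 21900 protein-coding genes on mm10: Cd28, Icos, Cd27, Tnfrsf9, Tnfrsf4, Tnfrsf18, Cd2, Cd5, Cd6 and Cd48. A gene counted as marked where at least 1 base of an H3K79me2 peak lay inside its RefSeq interval, and 9 of the 10 were marked with vehicle, the same 9 with EPZ-5676 and 0 with SGC-0946. Of all protein-coding genes, 34.5% were marked with vehicle, 15.9% with EPZ-5676 and 0.142% with SGC-0946. H3K79me2, the dimethyl form of lysine 79 on histone H3, was measured by chromatin immunoprecipitation and sequencing (ChIP-seq). The cells were CD8 T cells of male mice from the CreERT2;DOT1L-flox;OT-I strain, with the genotype wt;wt;het, so that no group had the Cre or the floxed allele and all were heterozygous for OT-I, a transgenic T cell receptor; the age of the mice is not given in the sources used here. All cells were activated on day 0 with antibodies against CD3 and CD28, the latter the product of a gene described here, and grown to day 8 with 0.1% DMSO, with EPZ-5676 or with SGC-0946, each compound at a labelled dose of 10 mM. Such compounds are usually given to cells at micromolar doses, so that unit is doubtful. Each of the 3 treatments had 2 immunoprecipitated and 2 input libraries and 1 deposited list of broad peaks, called by the names DMSO, EPZ and SGC, so no spread between replicates could be measured and no test was made.

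DOT1L is the methyltransferase that places H3K79me2, a mark of transcribed genes that usually starts near the transcription start and reaches into the gene body. EPZ-5676 and SGC-0946 are DOT1L inhibitors that compete with its methyl donor. A T cell needs signals beside its antigen receptor, and the receptors studied here give or tune them: CD28 and ICOS bind B7-type ligands and recruit PI3-kinase, the TNF receptor family members CD27, CD137, OX40 and GITR recruit TRAF adaptors and lead to NF-kB, CD2 and its ligand CD48 hold cells together, and CD5 and CD6 are scavenger receptor family proteins that also dampen antigen receptor signals. Several of these proteins differ between resting and activated T cells, with CD137, OX40, ICOS and GITR known for their increase after activation.

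The DMSO list held 12578 peaks, the EPZ list 4443 and the SGC list 55, and read depth is unknown from them. The labelled cell type was checked against fixed markers, beside 34.5% of all protein-coding genes marked with DMSO. All 6 markers set for CD8 T cells were marked, namely Cd8a and Cd8b1 and, of T cells in general, Cd3d, Cd3e, Cd3g and Cd247. Cd4, Zbtb7b and Foxp3 of CD4 T cells, Ncr1 and Klrb1c of NK cells and all 6 myeloid markers had no peak. Of 5 B cell markers Cd79a alone was marked, through 0.254 kb of a peak that was not weak, at 7.06-fold enrichment. Fold enrichment here and below is the authors' value for a peak, averaged over its length, and is read only within its own list.

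Start sites were available for 6 of the 10 genes in the RefSeq promoter table for GRCm38.p6, with 7 windows of 300 bases, from 250 bases before the start to 50 bases from it on. The 5 windows below are shown because the edges of the DMSO peaks fall in different places relative to them. Capitals are bases under a DMSO peak and lower case letters are bases outside any DMSO peak, each written 5′ to 3′ on the strand of the gene. Tnfrsf4 and Tnfrsf18 are neighbours of which only the latter was marked, the Tnfrsf9 window belongs to the second of its listed starts, the Cd5 window holds the edge of the peak, and Cd48 had the highest fold enrichment of the 10 genes.
Tnfrsf4, chr4:156013445-156013744, + strand: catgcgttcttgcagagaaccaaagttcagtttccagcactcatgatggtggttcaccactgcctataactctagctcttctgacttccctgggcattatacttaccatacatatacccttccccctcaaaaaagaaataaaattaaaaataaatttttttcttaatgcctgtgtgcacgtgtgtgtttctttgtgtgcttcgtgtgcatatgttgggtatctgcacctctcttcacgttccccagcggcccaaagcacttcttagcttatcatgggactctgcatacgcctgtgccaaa
Tnfrsf18, chr4:156026072-156026371, + strand: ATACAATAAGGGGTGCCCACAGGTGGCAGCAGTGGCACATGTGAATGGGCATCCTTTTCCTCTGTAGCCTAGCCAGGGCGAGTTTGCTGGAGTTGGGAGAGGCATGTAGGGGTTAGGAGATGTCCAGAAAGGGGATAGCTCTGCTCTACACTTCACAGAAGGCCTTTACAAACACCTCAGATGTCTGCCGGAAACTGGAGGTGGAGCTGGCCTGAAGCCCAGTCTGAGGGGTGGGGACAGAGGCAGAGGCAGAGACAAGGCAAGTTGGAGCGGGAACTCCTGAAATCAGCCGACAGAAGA
Tnfrsf9, chr4:150927749-150928048, + strand: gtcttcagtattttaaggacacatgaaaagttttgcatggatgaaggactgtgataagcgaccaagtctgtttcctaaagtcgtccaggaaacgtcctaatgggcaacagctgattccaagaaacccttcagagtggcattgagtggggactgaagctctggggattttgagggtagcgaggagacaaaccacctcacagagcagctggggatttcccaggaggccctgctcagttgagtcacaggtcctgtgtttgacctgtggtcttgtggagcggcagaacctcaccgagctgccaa
Cd5, chr19:10738925-10739224, − strand: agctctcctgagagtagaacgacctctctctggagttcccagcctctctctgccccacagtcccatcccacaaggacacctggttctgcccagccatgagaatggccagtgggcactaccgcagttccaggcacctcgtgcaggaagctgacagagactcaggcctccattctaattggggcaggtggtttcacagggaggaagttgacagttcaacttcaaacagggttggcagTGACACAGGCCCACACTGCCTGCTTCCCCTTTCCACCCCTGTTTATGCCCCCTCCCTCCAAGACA
Cd48, chr1:171681742-171682041, + strand: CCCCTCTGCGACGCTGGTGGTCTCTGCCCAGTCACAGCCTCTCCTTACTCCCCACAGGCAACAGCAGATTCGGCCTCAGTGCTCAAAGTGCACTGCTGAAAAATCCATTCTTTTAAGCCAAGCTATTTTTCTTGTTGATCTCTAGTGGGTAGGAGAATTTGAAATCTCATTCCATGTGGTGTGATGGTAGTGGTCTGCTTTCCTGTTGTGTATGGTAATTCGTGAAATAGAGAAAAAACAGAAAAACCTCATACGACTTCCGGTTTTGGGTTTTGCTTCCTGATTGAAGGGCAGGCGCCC
The DMSO peak covered all 300 bases at Tnfrsf18 and Cd48, 65 bases at Cd5, and 0 bases at Tnfrsf4 and at the Tnfrsf9 start. EPZ peaks covered all 300 bases at Cd48 and 39 at Tnfrsf18, and 0 in the other 3 windows.

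These windows were poor in CpG. The 7 windows of the receptor genes held 3 (Cd5) to 7 (Cd27 and Cd48) CpG dinucleotides, against a median of 13 over 21263 windows of protein-coding genes and 22 over the 3214 windows whose start lay in a DMSO peak (interquartile range 14 to 30). The 4 receptor windows with a start in a DMSO peak, those of Cd48, Tnfrsf18, Cd27 and Cd5, therefore all held fewer CpGs than the lower quartile of such windows. Short motifs were searched on both strands as descriptions. The NF-kB-type letters GGGANTTCC matched once, as GGGATTTCC at bases -42 to -34 of the second Tnfrsf9 start, and occur in 1.84% of all windows. The ETS core GGAAGT was found in the Cd48, Tnfrsf4 and Cd5 windows (24.8% of all windows), the RUNX core TGTGGT in the Cd48 window and at the second Tnfrsf9 start (14.97%), and TATAAA in none of the 7 (12.6%). None of these matches overlapped another.

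**Figure D1:**
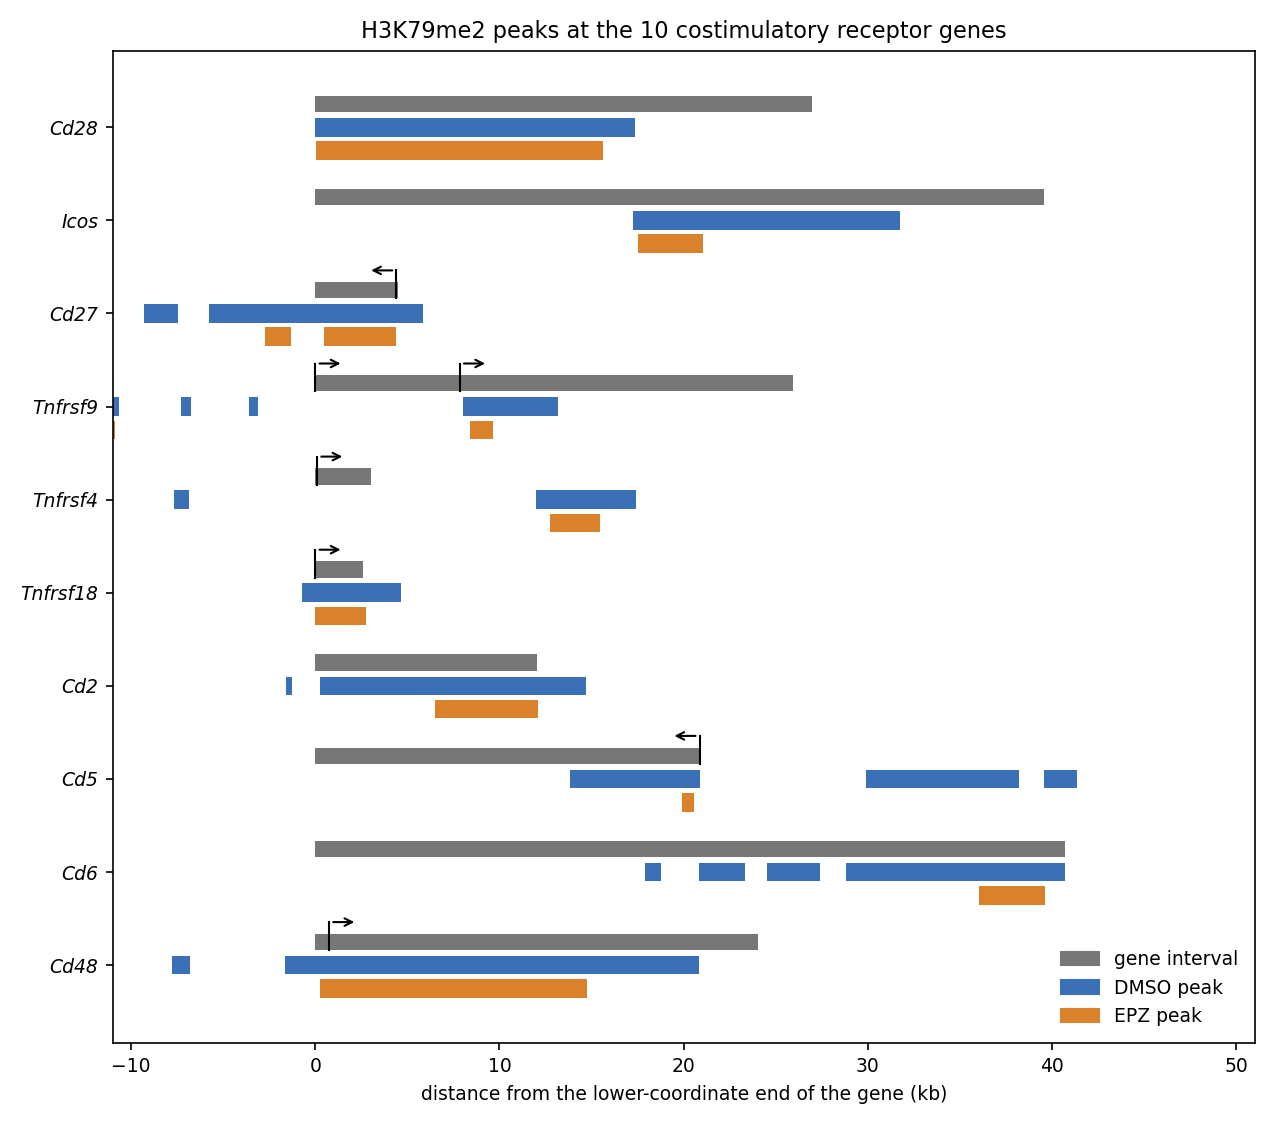
Each gene interval (grey) with the DMSO peaks (blue) and EPZ peaks (orange) in it or within 30 kb of it, against the distance in kb from the lower-coordinate end of the gene; peaks beyond the axis are not drawn, and arrows are start sites in the RefSeq promoter table, drawn for the 6 genes that have them. Each EPZ peak inside a gene lies within a longer DMSO peak, and the Tnfrsf4 interval holds neither.

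Of the CD28 family, DMSO peaks covered 64.4% of the Cd28 interval and 36.7% of the Icos interval, whose lower 17.2 kb held no peak. Cd28, the main costimulatory receptor of naive T cells (chr1:60746388-60773359), carried 1 DMSO peak of 17.4 kb at 8.39-fold, which began 15 bases below the lower end of the gene and left 9.60 kb at its upper end without a peak. Its EPZ peak was 15.6 kb long at 6.92-fold in the EPZ list, and its edges lay 75 bases and 1760 bases inside those of the DMSO peak. The EPZ peak thus covered 89.5% of the DMSO peak bases in the gene, a share higher than in 96.6% of the 3486 genes marked in both lists.

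Icos, the inducible costimulator (chr1:60960773-61000322), carried 1 DMSO peak of 14.5 kb at 4.83-fold. It lay wholly inside the interval, from 17.2 kb above its lower end to 7.80 kb below its upper end. The interval used joins curated and predicted transcripts, and where each of them starts was not used here. The share of Icos under a peak therefore depends on that interval. The EPZ peak of Icos was 3.49 kb long at 4.32-fold in its list, 24.0% of the DMSO bases. The lower edge of that peak lay 291 bases inside the DMSO edge and the upper edge 10.7 kb inside, so the bases without an EPZ peak were nearly all on the upper side. Ctla4, the inhibitory relative that lies between Cd28 and Icos, was marked at 5.95-fold with DMSO, and EPZ peaks covered 62.1% of its DMSO bases.

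Of the 4 TNF receptor family genes, 3 were marked. Cd27, a receptor of naive and memory T cells (chr6:125232620-125237136), lay entirely under a DMSO peak of 11.6 kb at 7.56-fold. That peak reached 5.75 kb below the gene into Tapbpl, which encodes a relative of the MHC class I chaperone tapasin, and so cannot be given to Cd27 alone; it also lay over the noncoding genes E130112N10Rik and Mir8113. The EPZ list held 2 separate peaks on it: 1 of 3.92 kb at 5.04-fold in Cd27 and 1 of 1.40 kb at 4.04-fold in Tapbpl. Within Cd27 the EPZ peak covered 86.8% of the DMSO bases, whereas over the whole DMSO peak the 2 EPZ peaks covered 45.9%.

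Tnfrsf18, which encodes GITR (chr4:156026322-156028894), was likewise wholly under a DMSO peak, 5.39 kb long at 6.15-fold, which ran from 0.726 kb below the gene to 2.09 kb above it. Its EPZ peak was 2.74 kb long at 4.48-fold in the EPZ list, and covered 99.6% of the DMSO bases in this short gene and 50.8% of the whole DMSO peak. The lncRNA gene Gm16008 spans the same interval, so neither peak can be given to Tnfrsf18 alone.

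Tnfrsf9, which encodes CD137 (chr4:150920155-150946104), carried the weakest mark of the 9 genes, a DMSO peak of 5.16 kb at 4.33-fold. The peak began 7.995 kb past the first listed start and 151 bases past the second, and it covered 19.9% of the gene. Its EPZ peak was 1.26 kb long at 4.10-fold in its list, 24.4% of the DMSO bases, and began 537 bases past the second start. No peak touched the first start. Between Tnfrsf9 and Park7 lay 2 short DMSO peaks, of 0.537 kb and 0.449 kb, which touched no gene of the table and had no EPZ peak on them.

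Tnfrsf4, which encodes OX40 (chr4:156013595-156016613), was the 1 gene of the set with no peak in any list. It lies between marked genes. Sdf4, a gene of a calcium-binding protein that overlaps it by 16 bases, had 8.52 kb of DMSO peaks at up to 7.49-fold, and Tnfrsf18 starts 9.71 kb above it. The nearest DMSO peaks ended 6.87 kb below Tnfrsf4 (0.823 kb at 2.83-fold, in Sdf4) and began 8.98 kb above it (the Tnfrsf18 peak). A gene without a peak is one where none was called, and a weak mark at this depth, which is unknown, would look the same.

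The adhesion pair Cd2 and Cd48 was among the most strongly marked of the set. Cd48, a GPI-anchored SLAM family protein that is the ligand of CD2 in mice (chr1:171681245-171705258), carried a DMSO peak of 22.5 kb at 11.1-fold, higher than in 98.5% of marked genes. Its EPZ peak was 14.5 kb long at 11.3-fold, a value above that of 95.1% of the genes marked in both lists. EPZ peaks covered 69.6% of the DMSO bases in Cd48. Of the whole DMSO peak, 6.06 kb at the downstream end and 1.94 kb at the upstream end lay outside the EPZ peak. That DMSO peak reached 20.1 kb downstream of the start and 2.42 kb upstream.

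Cd2, a receptor of the immunoglobulin superfamily (chr3:101275908-101287939), lay under a DMSO peak of 14.4 kb at 8.09-fold that covered 97.9% of the gene and reached 2.65 kb past its upper end. Its EPZ peak was 5.58 kb long at 6.50-fold in its list and covered 47.0% of the DMSO bases in the gene. The edges of the EPZ peak lay 6.25 kb inside the DMSO peak at the lower side and 2.61 kb inside at the upper side. The nearest protein-coding gene, Igsf3, lay 88.7 kb from Cd2, and a further DMSO peak of 0.337 kb lay 1.24 kb below the gene.

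Cd5 and Cd6, neighbours on chromosome 19 that lie 50.3 kb apart, had long DMSO peaks of moderate enrichment and little cover in the EPZ list. Cd5, a receptor that restrains antigen receptor signals (chr19:10718107-10739026), carried a DMSO peak of 7.04 kb at 5.18-fold that ended 15 bases upstream of its listed start and ran 7.02 kb downstream. The EPZ peak of Cd5 was 0.649 kb long at 2.88-fold, a value with only 4.16% of the genes marked in both lists below it, and covered 9.22% of the DMSO bases. It lay from 318 to 966 bases downstream of the start. Its −log10 q was 1.84, where the lowest value in the EPZ list is 1.08.

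Cd6, a receptor for ALCAM (chr19:10789339-10830062), was the 1 gene of the set with several DMSO peaks, namely 4 over 18.1 kb. The widest was 11.9 kb at 4.83-fold and ended 31 bases below the upper end of the gene. The other 3 followed toward the lower end, at 2.88 kb, 2.52 kb and 0.821 kb in length and at 3.12-fold, 3.30-fold and 2.80-fold. The single EPZ peak, 3.60 kb at 3.20-fold with a −log10 q of 2.06, lay on the widest of them and covered 30.3% of it, and the 3 short peaks had no EPZ peak.

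**Figure D2:**
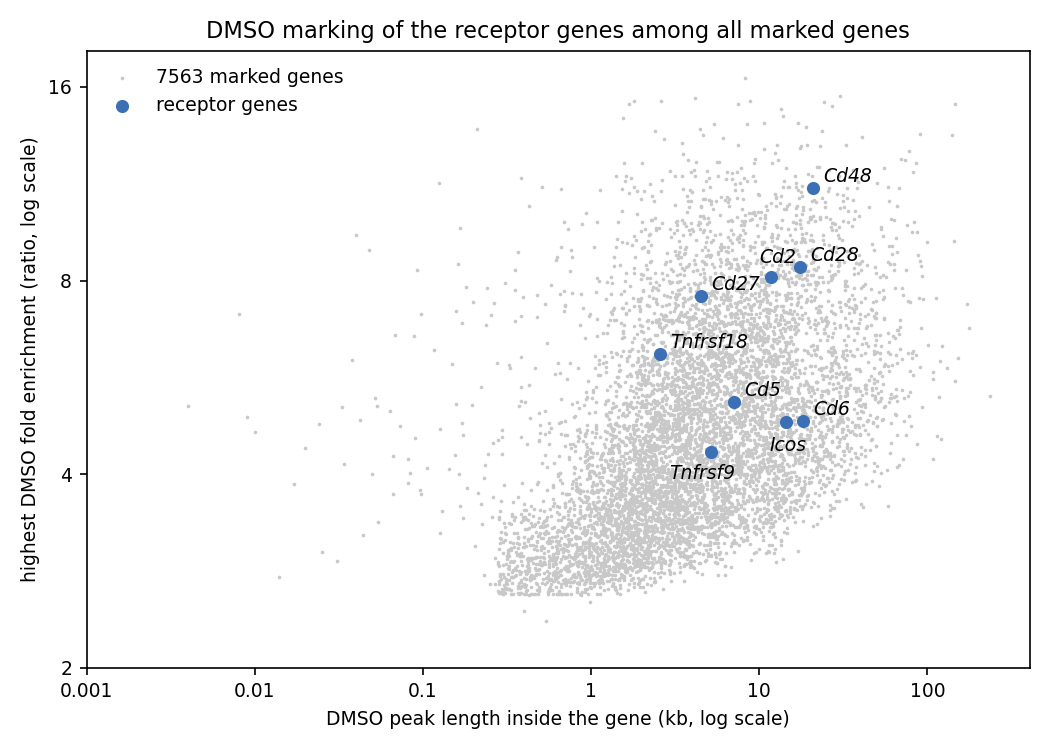
Highest DMSO fold enrichment against DMSO peak length inside the gene, on log scales, for the 7563 protein-coding genes marked in DMSO (grey) and the 9 marked receptor genes (blue). Cd48 stands highest of the receptor genes at 11.1-fold and 20.8 kb, and Tnfrsf9 lowest at 4.33-fold.

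Set side by side, the 9 genes marked in DMSO ran from 11.1-fold to 4.33-fold in the order Cd48, Cd28, Cd2, Cd27, Tnfrsf18, Cd5, Cd6, Icos and Tnfrsf9. Of all protein-coding genes 34.5% were marked in DMSO, against which the count was 9 of 10. Cd6 and Icos, at 4.835-fold and 4.829-fold, had nearly equal values. The median highest fold enrichment of the 9 was 6.15, against 4.47 over the 7563 marked genes (interquartile range 3.53 to 5.99). The median peak length in the gene was 11.8 kb against 4.10 kb, and the median share of the gene under a peak was 64.4% against 23.7%. By share of the gene the order differed, from 100% at Cd27 and Tnfrsf18 and 97.9% at Cd2 through 86.7% at Cd48 and 64.4% at Cd28 to 44.4% at Cd6, 36.7% at Icos, 33.6% at Cd5 and 19.9% at Tnfrsf9. These shares depend on the gene interval, which at Icos joins curated and predicted transcripts. More than 1 DMSO peak was found in 31.4% of marked genes and in 1 of these 9.

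In the EPZ list all 9 genes had a peak, and each had exactly 1, where 17.9% of genes marked in both lists had more. Over all protein-coding genes 15.9% had an EPZ peak, over those marked in DMSO 46.1%, and over the 4015 genes with a DMSO fold enrichment at or above that of Tnfrsf9 79.5%. The last share was set after the values of these 9 genes were seen. Narrower ranges, counted by DMSO peak, lay on both sides of it. Of the 1408 peaks between 6.15-fold and 11.1-fold, the range of 5 of the 9 genes, 98.9% held an EPZ peak. Of the 1229 peaks between 4.33-fold and 5.18-fold, the range of the 4 others, 61.3% did. With peaks limited to a −log10 q of 5 or more, 8 of the 10 receptor genes were marked in DMSO (17.3% of all protein-coding genes) and 6 in EPZ (7.68%), with Tnfrsf9 lost from DMSO and Tnfrsf9, Cd5 and Cd6 from EPZ. In the 9 genes the median share of DMSO bases under an EPZ peak was 47.0%, against 34.4% over all 3486 genes marked in both lists (interquartile range 18.4 to 55.4).

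**Figure D3:**
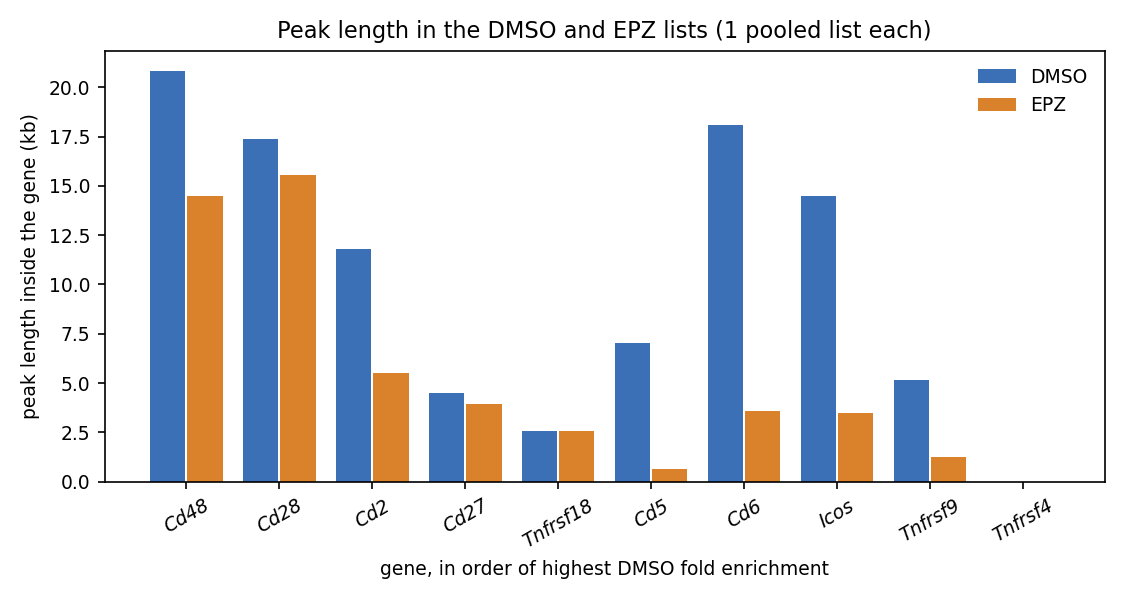
Peak length inside each receptor gene in kb in the DMSO list (blue) and the EPZ list (orange), with genes in order of highest DMSO fold enrichment; each bar is 1 value from 1 pooled list, so there are no error bars. The bars of Cd28, Cd27 and Tnfrsf18 are close in height, while those of Cd5, Cd6, Icos and Tnfrsf9 differ by more than 4 times.

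The cover in the EPZ list split the set along DMSO enrichment, with the cut placed by that cover after the values were seen. The 5 genes of highest DMSO fold enrichment, Cd48, Cd28, Cd2, Cd27 and Tnfrsf18, had 47.0% to 99.6% of their DMSO bases under an EPZ peak, and the 4 others, Cd5, Cd6, Icos and Tnfrsf9, had 9.22% to 24.4%. All marked genes in the same ranges of DMSO enrichment, the receptor genes included, differed in the same way by their medians. Over 1637 genes between 6.15-fold and 11.1-fold the median share was 50.3% (interquartile range 33.0 to 67.3), and over 1287 genes between 4.33-fold and 5.18-fold it was 7.08% (0 to 19.5). Unlike the 3486 genes marked in both lists, these ranges include genes without an EPZ peak, counted as 0%. Against these, Cd28, Cd27, Tnfrsf18 and Cd48 stood above the upper quartile of their range, as did Icos, Tnfrsf9 and Cd6 of theirs, while Cd2 and Cd5 lay within the quartiles. Among genes marked in both lists, at any DMSO enrichment, only 34.7%, 35.1% and 27.4% had a lower share than Icos, Tnfrsf9 and Cd6. For Cd48, Cd27, Tnfrsf18 and Cd2 the placement depends on the gene interval. Over the 1408 whole DMSO peaks of the higher range the median EPZ cover was 53.2% (interquartile range 41.0 to 67.0). By whole peak only Cd28, at 89.4%, stood above those quartiles, Cd48 at 64.4%, Tnfrsf18 at 50.8% and Cd27 at 45.9% lay within them, and Cd2 at 38.6% lay below. Of the 1229 whole peaks of the lower range 61.3% held an EPZ peak, and the median cover over all of them was 9.98% (0 to 21.2). Cd5 at 9.22% lay within these quartiles, and Tnfrsf9 at 24.4%, Icos at 24.0% and the widest Cd6 peak at 30.3% above them.

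**Figure D4:**
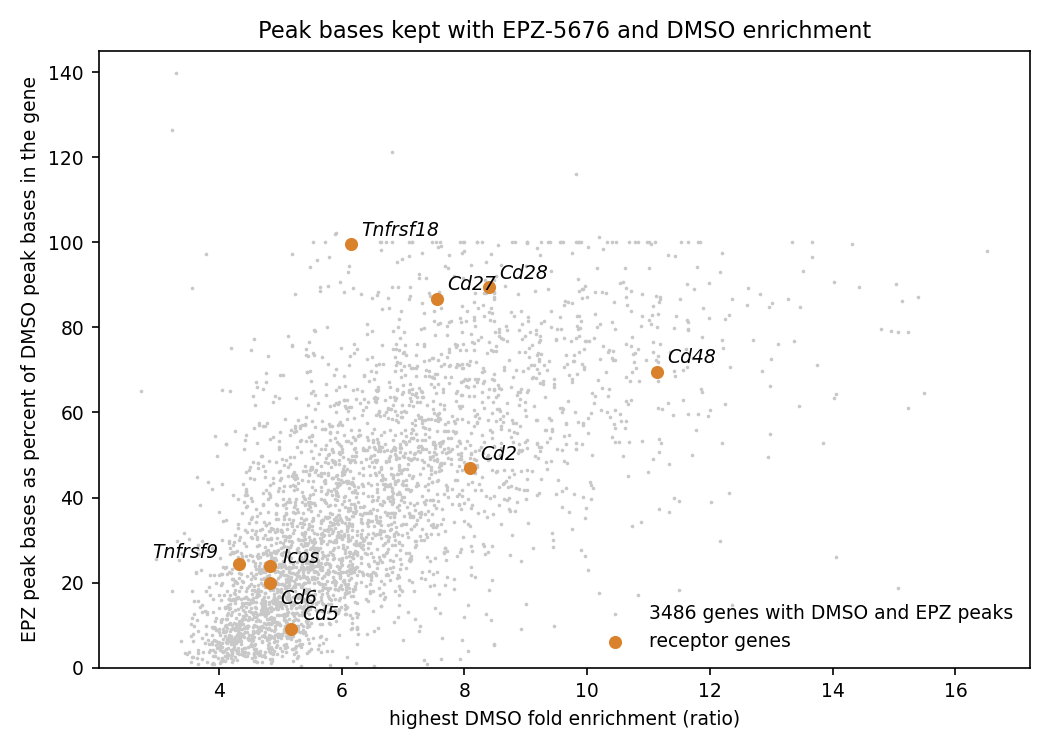
EPZ peak bases as a percent of DMSO peak bases in the gene, against the highest DMSO fold enrichment, for the 3486 protein-coding genes marked in both lists (grey) and the 9 receptor genes (orange). Cd5, Cd6, Icos and Tnfrsf9 lie at or below 24.4%, and the other 5 at or above 47.0%.

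The position of the peaks around the start could be given for the 5 marked genes with a listed start. The start lay in a DMSO peak in 4 of them, all but Tnfrsf9, against 44.2% of the 6149 marked genes with a listed start. An EPZ peak covered the start of Cd48 alone, against 22.6% of genes marked in both lists. At Cd27 and Tnfrsf18 the EPZ peak began 9 and 11 bases downstream of the start, at Cd5 318 bases. The DMSO peaks over these 4 starts reached 0.015 kb (Cd5), 0.726 kb (Tnfrsf18), 1.42 kb (Cd27) and 2.42 kb (Cd48) upstream, and 7.02 kb, 4.66 kb, 10.2 kb and 20.1 kb downstream. In all 4 the downstream edge lay further inside the DMSO peak in the EPZ list than the upstream edge did: 6.05 kb against 0.333 kb at Cd5, 1.91 kb against 0.737 kb at Tnfrsf18, 3.02 kb against 1.42 kb at Cd27 and 6.06 kb against 1.94 kb at Cd48. These are the outermost EPZ edges on the DMSO peak, and at Cd27 the downstream edge is that of the separate EPZ peak in Tapbpl. The EPZ peak in Cd27 itself ended 3.93 kb downstream of the start. The same, with outermost edges, was found in 76.7% of the 1408 genes with a single listed start in a DMSO peak that held an EPZ peak. Over those genes the DMSO peaks reached a median of 0.922 kb upstream and 6.45 kb downstream. An upstream edge thus had less room to move in kb, and these shifts do not tell which side lost the larger share. At Cd5, Tnfrsf18 and Cd27 the whole part of the DMSO peak upstream of the start lacked an EPZ peak.

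No receptor gene had an SGC peak, against 0.142% of all protein-coding genes and 0.410% of those marked in DMSO. The nearest SGC peak on the same chromosome was 0.615 Mb from Cd6, 0.640 Mb from Cd27 and 0.706 Mb from Cd5, and at least 6.96 Mb from each of the others. At the same labelled dose and day, the EPZ list had a peak in 9 of the 10 genes, beside 15.9% of all protein-coding genes. The SGC list had a peak in 0 of them, near its share of 0.142%. The whole lists held 4443 and 55 peaks, and there was no spread between replicates to set against the difference.

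Genes that act with the receptors were taken from 6 lists. Their counts stand beside 34.5% of all protein-coding genes marked in DMSO and 15.9% in EPZ. Of the genes marked in DMSO, 46.1% had an EPZ peak. Of 9 ligands of the receptors, 2 were marked in DMSO: Cd48 itself, and Cd80, a B7 ligand of CD28, which had 14.7 kb at 3.45-fold and an EPZ peak of 0.510 kb. Cd86, Icosl, Cd70, Tnfsf9, Tnfsf4, Tnfsf18 and Alcam had no peak in any list. Of 3 other CD28 family genes, Ctla4 and Btla were marked in DMSO and EPZ and Pdcd1 in neither. Of 9 SLAM family genes, 6 were marked in DMSO and 2 also in EPZ, namely Slamf7 at 7.31-fold in DMSO, the nearest gene below Cd48, and Sh2d1a, the adaptor SAP, at 5.65-fold. Ly9, Slamf6, Cd84 and Slamf1, at 3.77-fold down to 3.24-fold in DMSO, had no EPZ peak, and Cd244a, Slamf8 and Slamf9 had none in either.

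Among 20 other TNF receptor family genes, 7 were marked in DMSO and 3 of them in EPZ, shares near those over all protein-coding genes (34.5% and 15.9%). Tnfrsf1b, the second TNF receptor, was the highest at 8.57-fold, followed by Tnfrsf1a at 7.28-fold and Relt at 6.85-fold, and these 3 had EPZ peaks. Tnfrsf14, Tnfrsf10b, Fas and Tnfrsf21 were marked in DMSO alone, at 4.43-fold, 3.75-fold, 2.76-fold and 2.74-fold. Tnfrsf25, Ltbr, Cd40 and Tnfrsf8 were among the 13 without a DMSO peak.

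Downstream of the receptors every listed gene held at least 1 base of a DMSO peak, beside 34.5% of all protein-coding genes. Of all genes marked in DMSO 46.1% had an EPZ peak, and of those at or above 4.33-fold 79.5%. All 20 proximal adaptor and kinase genes were marked, with a median of 6.14-fold, from Grap2, the GADS adaptor, at 12.4-fold to Cd2ap, a scaffold that binds the CD2 tail, at 3.35-fold. EPZ peaks lay in 17 of them, all but Cd2ap, Cd2bp2 and Siva1, a protein that binds the CD27 tail. Among the genes of this list with SGC peaks was Grap2, over 4.84 kb. All 21 TRAF and NF-kB genes were marked in DMSO, with a median of 5.03-fold, from Malt1 at 8.40-fold to Relb at 2.95-fold. Some of these marks were weak, as in Relb, with 0.317 kb at a −log10 q of 1.49. An EPZ peak lay in 13 of the 21. The 8 without were Birc2, Ikbkb, Ikbkg, Nfkb2, Rela, Relb, Tnfaip3 and Traf5, and no SGC peak lay in this list. Traf1 and Traf2, adaptors of CD137 and OX40, had EPZ peaks over 28.1% and 31.0% of their DMSO bases. The choice of these lists, like that of the 10 receptors, was made with results of these data known, and the counts are descriptions beside the backgrounds given above.

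**Figure D5:**
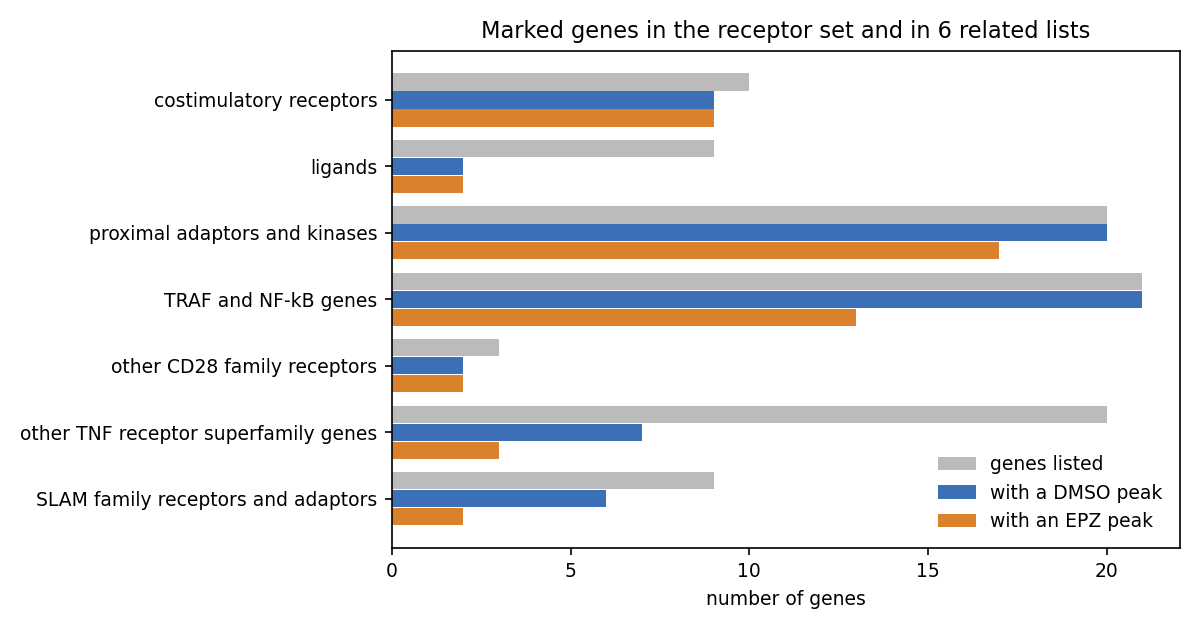
Number of genes listed (grey), with a DMSO peak (blue) and with an EPZ peak (orange) in the receptor set and in 6 related lists; Cd48 counts both as a receptor and as a ligand. The receptor set shows 10, 9 and 9 genes, the ligands 9, 2 and 2.

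Of the 15 protein-coding genes next to a receptor gene and outside the set, 6 were marked in DMSO and 5 in EPZ, beside 34.5% and 15.9% of all protein-coding genes. Raph1 and Ctla4 flank Cd28 at 179.3 kb and 135.7 kb, Ctla4 and Pard3b flank Icos at 44.9 kb and 638.3 kb, and Gm52612 and Igsf3 flank Cd2 at 164.2 kb and 88.7 kb; of these only Ctla4 was marked. Tuba3a above Cd27, Per3 above Tnfrsf9, Ttll10 above Tnfrsf18, Slc15a3 above Cd6 and Tma7-ps above Cd48 had no peak either. Marked neighbours were Tapbpl, 0.759 kb from Cd27, Park7, 10.2 kb from Tnfrsf9, Sdf4, which overlaps Tnfrsf4, Slamf7, 28.2 kb from Cd48, and Vps37c, 3.48 kb from Cd5. Vps37c, an ESCRT-I subunit gene, carried 16.1 kb of DMSO peak at 4.28-fold and no EPZ peak, whereas Cd5 beside it had one.

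By DMSO peak length, DMSO fold enrichment and EPZ peak length together, over the 7563 genes marked in DMSO and 3 values a gene, the gene most like Cd28 was Kbtbd2 and that most like Cd48 was Ywhaz, which encodes a 14-3-3 protein. For Cd2 it was Rccd1, for Cd27 the chaperone gene Hspa5, for Tnfrsf18 the chemokine receptor gene Cxcr3, for Cd5 Parp9, for Cd6 Ubqln1, for Icos Naa50 and for Tnfrsf9 Lrif1. The distances ran from 0.0310 (Cxcr3) to 0.0762 (Lrif1) in units of the SD over marked genes. Cxcr3, for example, had 2.61 kb of DMSO peak at 6.18-fold and 2.33 kb of EPZ peak, beside 2.57 kb, 6.15-fold and 2.56 kb in Tnfrsf18.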

How the data were processed

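H3K79me2 ChIP-seq was made from 6 immunoprecipitates and 6 inputs, 2 biological replicates in each of 3 treatments. Per the submitters' processing notes the tools were MACS2 2.2.7.1, BWA 0.7.17-r1188 and Picard, with mm10 (GRCm38) and sacCer3; thresholds, pooling of replicates, and use of inputs and of the added yeast chromatin are not stated there. A list was treated as the pool of its treatment. The deposited fold enrichment is a ratio over background that the authors' caller averaged over each peak, and the deposited −log10 q is averaged likewise; the deposited score was not used. Depth is unknown, so weak peaks may be uncalled and no interval is given. Peaks were set against RefSeq gene intervals (GRCm38.p6) by an overlap of at least 1 base, in Python 3.11.15 with pandas 2.3.3, with code tested on simulated data. Exons were not analysed here, and strand came from the promoter table. No test was made. The members, lists and fold ranges were chosen with earlier results of these data known. Named genes were the members, their nearest neighbours and genes under the same peaks, the highest, lowest and unmarked genes of each list (up to 8), and the gene nearest to each member by DMSO peak bases, DMSO fold enrichment and EPZ peak bases (log2, with 1 base added to the last); further genes were named after their values were seen. Alternatives were a −log10 q of at least 5, at least 500 bases in the gene, assigning a peak only to its most overlapped gene, intervals widened by 5 kb, and joining peaks less than 1 kb apart. The values of 1 gene of the lists are not reported here.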

Additional observations from a re-analysis of the deposited data

How the results depend on the processing

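No paired analysis was possible because each treatment has 1 pooled list and no value per replicate. The count of receptor genes with a peak, 9 in DMSO, 9 in EPZ and 0 in SGC, was the same when at least 500 bases in the gene were required and when intervals were widened by 5 kb. Widening cannot lower a count, and the shortest peak length in a marked gene was 0.649 kb (Cd5 in EPZ). The unchanged counts therefore say little, and the shares of all protein-coding genes under these settings are not given here. With a −log10 q of at least 5 it was 8 in DMSO, without Tnfrsf9, and 6 in EPZ, without Cd5, Cd6 and Tnfrsf9 (17.3% and 7.68% of all protein-coding genes), and the SGC count stayed at 0. With a peak assigned only to its most overlapped gene, Cd27 lost its DMSO peak to Tapbpl, leaving 8, and the EPZ count was 9. Under the −log10 q limit the DMSO peak length in Cd6 was 11.9 kb, against 18.1 kb. Widening the interval brought the EPZ share of DMSO bases to 49.1% at Cd27 and 50.8% at Tnfrsf18. Joining peaks less than 1 kb apart changed no peak number, though only Cd6, in DMSO, had more than 1 peak in the gene to join. The median EPZ share over the receptor genes marked in DMSO was 37.8% in the widened intervals, against 47.0%. With a −log10 q of at least 5 it was 58.3%, over 8 genes without Tnfrsf9. Unknown depth limits any reading of a missing peak.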

Other observations

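Between Cd5 and Cd6 lies the lncRNA gene A430093F15Rik (chr19:10740947-10786043), which was outside the receptor set and carried 2 DMSO peaks over 10.1 kb, the longer of 8.32 kb at 4.30-fold (chr19:10747982-10756296). Neither had an EPZ peak, nor did the DMSO peak in Vps37c. Of the DMSO peaks from Vps37c to Cd6, those with an EPZ peak were the Cd5 peak and the widest of the 4 Cd6 peaks. These were at 5.18-fold (Cd5) and 4.83-fold (Cd6) in DMSO. Those without were lower, at 4.28-fold in Vps37c, 4.30-fold and 2.78-fold in A430093F15Rik and 2.80-fold to 3.30-fold in Cd6. This region was chosen after its values were seen.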
